A study of Mus musculus with 15 samples.

Results

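Glucagon-secreting alpha cells form, with the insulin-secreting beta cells, most of the endocrine tissue of the mouse pancreatic islet. The alpha-cell identity genes followed here were chosen by name: Gcg, Ttr, Gc, Irx1 and Irx2, that is 5 of the 48709 genes in the deposited table. All 5 had enough counts to be tested, with a lowest count of 278 in any library (Irx1) against the 3 counts taken as the floor. RNA came from islets of 15 untreated female NOD mice, an inbred strain in which immune cells enter the islets (insulitis) before diabetes appears, with 3 mice at each of 5 ages spaced 2 weeks apart (4 to 12 weeks) and no mice of another strain. Islets were freed from the pancreas with collagenase and collected per mouse, so every library is a mixture of endocrine cells with whatever leukocytes, vessels and exocrine cells stayed with them. Libraries were made from polyadenylated RNA and held 25407492 to 41616275 counts, with a median of 28004882. Fewer cells of a type and less RNA per cell cannot be told apart in such bulk libraries.

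Alpha cells raise blood glucose by secreting glucagon, which acts on the liver and opposes insulin. Gcg encodes proglucagon, from which prohormone convertases cut glucagon in alpha cells and GLP-1 in the gut. Irx1 and Irx2 are Iroquois homeodomain transcription factors that in the islet mark alpha cells, while Ttr (transthyretin, a carrier of thyroxine and of retinol-binding protein) and Gc (the vitamin D binding protein) are plasma carrier proteins best known from liver that alpha cells also express. The same genes are therefore used to tell alpha cells from beta cells in islet preparations.

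All 5 genes fell with age. The promoters of Irx1 and Ttr are not reported here, and those of Gcg, Gc and Irx2 are shown. Each runs from 250 bases before to 50 after the gene's start in RefSeq on GRCm38.p6, is written 5′ to 3′ along the gene's own strand, and covers chr2:62483604-62483903 (minus), chr5:89457849-89458148 (minus) and chr13:72628570-72628869 (plus), respectively. Capitals mark matches to TATAAA on either strand and to CANNTG, the E box bound by helix-loop-helix factors.
Gcg: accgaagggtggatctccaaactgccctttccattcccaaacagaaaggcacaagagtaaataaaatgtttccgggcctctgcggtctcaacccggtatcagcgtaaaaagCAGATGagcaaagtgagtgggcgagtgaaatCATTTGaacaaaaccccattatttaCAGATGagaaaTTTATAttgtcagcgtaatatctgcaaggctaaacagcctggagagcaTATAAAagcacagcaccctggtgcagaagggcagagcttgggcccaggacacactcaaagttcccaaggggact
Gc: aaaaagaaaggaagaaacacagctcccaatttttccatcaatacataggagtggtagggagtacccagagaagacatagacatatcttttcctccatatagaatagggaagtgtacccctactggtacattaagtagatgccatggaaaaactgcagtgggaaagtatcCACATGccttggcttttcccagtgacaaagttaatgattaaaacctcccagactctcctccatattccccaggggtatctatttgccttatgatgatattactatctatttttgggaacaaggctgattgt
Irx2: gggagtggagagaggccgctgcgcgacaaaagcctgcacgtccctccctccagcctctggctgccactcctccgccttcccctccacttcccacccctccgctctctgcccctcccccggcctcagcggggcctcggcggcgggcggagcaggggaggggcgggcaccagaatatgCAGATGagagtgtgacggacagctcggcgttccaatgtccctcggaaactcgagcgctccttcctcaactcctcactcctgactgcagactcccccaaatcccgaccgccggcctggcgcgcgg
The Gcg promoter held 2 matches to TATAAA, one beginning 24 bases before the start on the gene's strand and the other 72 bases before it on the opposite strand (as TTTATA). Of 32851 mouse promoters of the same length, 13.6% held this motif, while Gc and Irx2 held none. Gcg held 3 E boxes, beginning 139, 108 and 83 bases before the start, Gc held 1 (81 bases before) and Irx2 held 1 (74 bases before). The letters CAGATG occurred in both Gcg and Irx2, but an E box of any kind is in 72.3% of promoters. Both strands were also searched for TAATTA (a homeodomain core, in 5.29% of promoters), TGTTTAC (forkhead, 3.65%), TGACGT (the core of the cAMP response element, 7.51%) and TGCTGA (19.5%), and none of these letters were in the 3 windows. The only motif searched that the 3 promoters shared was thus the common E box.

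On the GRCm38 assembly, Gcg lies on the minus strand at chr2:62474530-62483650 and has 6 exons in its annotated transcript. Gc lies at chr5:89417522-89457898 on the minus strand, with 13 exons. Irx1 (chr13:71957921-71963723, minus strand, 4 exons) and Irx2 (chr13:72628820-72634198, plus strand, 5 exons) are neighbours in the same Iroquois cluster on chromosome 13. Ttr lies at chr18:20665250-20674324 on the plus strand, with 4 exons. Its start overlaps an antisense transcript, Gm16090, which received 264 counts over all libraries against 343468 for Ttr, or 0.0769% of them, so that reads of the partner could change little in the Ttr value.

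Read by TPM (a level scaled by transcript length, so that genes can be compared), the 5 genes spanned over 3 orders of magnitude. At 4 weeks Gcg stood at 62914 ± 1196 TPM (SD, n = 3), Ttr at 2153 ± 228, Gc at 154 ± 13.1, Irx1 at 23.4 ± 2.06 and Irx2 at 20.7 ± 1.05. Gcg ranked 3 of all genes by TPM in every one of the 15 libraries. Ttr ranked between 22 and 120 over the libraries and Gc between 358 and 2182, whereas the transcription factors ranked between 3660 and 9292 (Irx1) and between 3944 and 9919 (Irx2). The order Gcg, Ttr, Gc held in every library, but Irx1 and Irx2 overlapped at 4 weeks and were at 14.3 ± 1.10 and 14.2 ± 0.525 TPM at 8 weeks. By 12 weeks the means were 31731 ± 5572 TPM for Gcg, 850 ± 271 for Ttr, 63.8 ± 12.4 for Gc, 12.7 ± 2.56 for Irx1 and 9.77 ± 1.48 for Irx2.

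All 5 alpha-cell genes were lower at 12 than at 4 weeks. In CPM (counts scaled by TMM to a common library size) the mean of each was lower at every 2-week step. A mean CPM that was lower at each step was seen in 8.7% of the 16554 genes tested. By TPM the mean of Irx1 was 14.30 at 8 weeks and 14.34 at 10 weeks. The levels below are CPM, given for the 3 mice of each age in the order of their labels.

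Gcg, the hormone gene, stood at 46361, 51732 and 48784 CPM at 4 weeks, 42423, 39334 and 35885 at 6 weeks, and 34783, 29481 and 28125 at 8 weeks. It stood at 21526, 22490 and 22694 CPM at 10 weeks and 16581, 23051 and 17055 at 12 weeks. The mice of 6, 8 and 10 weeks each lay wholly below those of the age before, while the second mouse of 12 weeks was above every mouse of 10 weeks. Between 4 and 12 weeks Gcg fell by 1.37 on the log2 scale (SE 0.145), which is 2.59-fold, with an adjusted p of 0.000133 by edgeR's quasi-likelihood test. Gcg took 4.51% ± 0.154 of all counts at 4 weeks and 2.06% ± 0.362 at 12 weeks.

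Ttr, the thyroxine carrier, had the largest fitted fall of the 5 genes, and of its differences from the others only that from Gcg was tested, as the ratio of their TPM. It stood at 1236, 1320 and 1544 CPM at 4 weeks, 1156, 1047 and 928 at 6 weeks, 802, 722 and 631 at 8 weeks, 362, 496 and 552 at 10 weeks, and 344, 579 and 321 at 12 weeks. The ages did not overlap up to 10 weeks, and those of 10 and 12 weeks did. The fall from 4 to 12 weeks was 3.30-fold (it fell by 1.72 on the log2 scale, SE 0.219, adjusted p = 0.000223 in edgeR).

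Gc, the vitamin D carrier, followed it closely. Its values were 138, 142 and 163 CPM at 4 weeks, 117, 113 and 104 at 6 weeks, 83.1, 73.6 and 69.2 at 8 weeks, 38.5, 60.0 and 58.0 at 10 weeks, and 42.4, 58.9 and 39.8 at 12 weeks. In both carrier genes the first mouse of 10 weeks was the lowest of its age. The second mouse of 12 weeks was the highest of its age in both. Gcg, Irx1 and Irx2 showed the same, so these positions did not set the carrier genes apart. Gc fell 3.15-fold (it fell by 1.65 on the log2 scale, SE 0.172, adjusted p = 0.000128 in edgeR).

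Irx1, a transcription factor gene, stood at 29.8, 27.0 and 29.6 CPM at 4 weeks, 28.0, 26.2 and 19.8 at 6 weeks, 17.0, 13.8 and 15.9 at 8 weeks, 13.4, 13.6 and 14.8 at 10 weeks, and 13.0, 14.5 and 8.74 at 12 weeks. The values fell apart into the 6 mice of 4 and 6 weeks, all at 19.8 CPM or above, and the 9 older mice, all at 17.0 or below. Irx1 fell 2.38-fold from 4 to 12 weeks (it fell by 1.25 on the log2 scale, SE 0.170, adjusted p = 0.000257 in edgeR).

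Irx2 stood at 31.9, 37.8 and 36.5 CPM at 4 weeks, 33.6, 28.4 and 25.2 at 6 weeks, 23.5, 19.7 and 21.1 at 8 weeks, 15.02, 15.4 and 17.7 at 10 weeks, and 13.0, 15.2 and 10.2 at 12 weeks. Unlike Irx1 it had separate ranges at 8 and 10 weeks. It fell 2.76-fold (it fell by 1.46 on the log2 scale, SE 0.146, adjusted p = 0.000128 in edgeR).

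**Figure D1:**
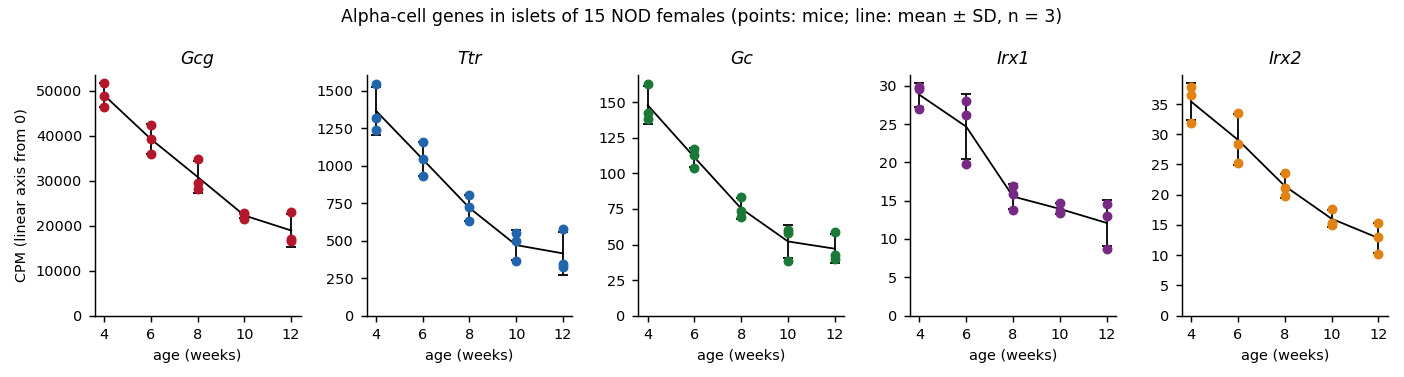
Level of each alpha-cell gene (CPM, linear axes that start at 0 and differ between panels) against age in weeks; points are the 15 mice, and lines join the means of 3 mice with their SD. The Gcg mean goes from 48959 CPM at 4 weeks to 18896 at 12 weeks. As a share of the mean, the SD is 5.44% (Irx1) to 11.7% (Ttr) at 4 weeks. At 12 weeks it is 19.1% (Gcg) to 34.5% (Ttr).

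In the comparison of the extremes of age, 5 of the 5 genes were called lower at an adjusted p under 0.05, against 27.2% of all genes tested. All 5 also passed the study's own threshold, a fold change of at least 1.5 with an unadjusted p under 0.05, which 11.0% of genes passed in this direction. The 12-week mice lay wholly below the 4-week mice in all 5, as they did in 33.9% of genes. The median change of the 5 was a fall by 1.46 on the log2 scale, where that of all genes tested fell by 0.05. A joint test of any difference among the 5 ages called all 5, with adjusted p of 0.000230 to 0.000436, against 56.0% of all genes.

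Between 6 and 4 weeks none of the 5 was called by edgeR's quasi-likelihood test, DESeq2 or the edgeR exact test, against 0.0846% of genes called lower by the first. The 5 changes ran from -0.22 (Irx1) to -0.41 (Gc) on the log2 scale. Before adjustment the edgeR p of Gc and Gcg was under 0.05, as for 4.87% of genes in this direction. None passed the fold threshold, as 1.75% of genes did in this direction. The 6-week mice lay below the 4-week mice for Gcg, Ttr and Gc, 3 of the 5, where 9.28% of genes showed this.

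Between 8 and 6 weeks, the interval in which 19 of 22 leukocyte genes passed the fold threshold upward, all 5 genes had separate ranges, against 11.7% of all genes. None was called at an adjusted p under 0.05 in the edgeR fit, as was no gene of the whole table (0.0%). Before adjustment the p of all 5 was under 0.05, as for 7.09% of genes in this direction. Irx1 had the largest change of the 5 here and fell by 0.67 on the log2 scale (SE 0.168, adjusted p = 0.162 in edgeR), and it alone passed the study's fold threshold, as did 1.42% of genes. DESeq2 called Irx1 (adjusted p = 0.0162) and Gc (adjusted p = 0.0413) and, over all genes, 0.64% as lower. The edgeR exact test called Irx1 (adjusted p = 0.0309) and, over all genes, 0.224% as lower. Leaving out the first mouse of 6 weeks or the second of 8 weeks took the number past the fold threshold from 1 to 0, and leaving out the third mouse of 6 weeks or the first of 8 weeks took it to 3.

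Between 10 and 8 weeks, Gcg (it fell by 0.47 on the log2 scale, SE 0.143, adjusted p = 0.0440 in edgeR) and Gc (it fell by 0.53, SE 0.168, adjusted p = 0.0490 in edgeR) were called, 2 of 5 against 8.37% of all genes. Irx2 and Ttr stood just outside, with adjusted p of 0.0596 and 0.0632 in the same fit, and Ttr passed the fold threshold, as did 2.83% of genes. These 4 had a p under 0.05 before adjustment, as did 18.3% of genes in this direction. Irx1 fell by only 0.16 (adjusted p = 0.507 in edgeR), and its mice of 10 weeks overlapped with those of 8 weeks. The calls at this step, over all genes as well as the 5, rested on single mice. Without the first or second mouse of 8 weeks, or the first or second of 10 weeks, the edgeR fit called none of the 5 and no gene of the whole table (0.0%). Without the third mouse of 10 weeks 4 of the 5 were called lower, against 17.2% of genes.

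Between 12 and 10 weeks none of the 5 genes was called by edgeR's quasi-likelihood test, DESeq2 or the edgeR exact test, and the ages overlapped in all 5, where 5.4% of genes had an older group wholly below. The changes ran from -0.15 (Gc) to -0.32 (Irx2) on the log2 scale. Irx2 alone had a p under 0.05 before adjustment, as did 3.99% of genes in this direction, and none passed the fold threshold, as 0.562% of genes did.

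**Figure D2:**
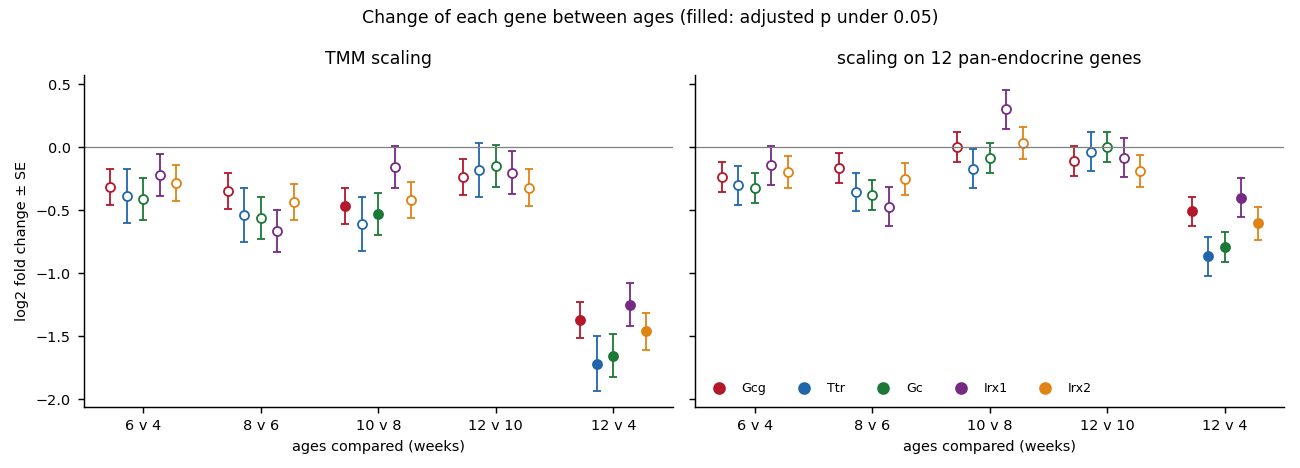
Log2 fold change of each gene with its SE for the 4 steps of 2 weeks and for 12 against 4 weeks, with TMM scaling (left) and with scaling on 12 pan-endocrine genes (right); filled points have an adjusted p under 0.05. On the left all 20 step values are below 0 and Gcg and Gc are filled at 10 against 8 weeks, while on the right no step is filled and Irx1 stands at 0.30 at 10 against 8 weeks.

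Leukocyte genes rose with age in the same libraries, and their part in the fall of the alpha-cell genes was not tested by the fits above. All 22 leukocyte genes tested rose between 4 and 12 weeks, with a median log2 change of 4.65. Their summed level was 49.8 to 242 CPM at 4 weeks, 71.9 to 273 at 6 weeks, 178 to 1007 at 8 weeks, 1049 to 2487 at 10 weeks and 2049 to 2434 at 12 weeks. Genes common to all islet endocrine cells (a pan-endocrine list of 12 granule and transcription factor genes such as Chga and Neurod1) fell in 11 of 12, with a median fall of 0.88 on the log2 scale, and 10 of 10 beta-cell genes fell, with a median fall of 0.82. Genes of vessels and connective tissue were higher too, as 7 of 8 rose (26.3% of all genes were called higher), with a median log2 change of 1.21 over the 8. Their summed level was 577 to 784 CPM at 4 weeks and 1390 to 1999 at 12 weeks. Col3a1, a fibrillar collagen gene, went from 197 to 584 CPM, while Kdr, an endothelial receptor gene, was at 144 and 143. The 10 acinar genes, which encode digestive enzymes of the exocrine pancreas, had a median log2 change of 0.87, and none was called (0 of 10 with an unadjusted p under 0.05 in edgeR). Their summed level was 1482 to 12670 CPM at 4 weeks and 3715 to 16547 at 12 weeks, with the highest, 17358, in a mouse of 10 weeks. The part of vessel, connective tissue and acinar RNA in the fall was not tested. The alpha-cell genes were also read against the 12 pan-endocrine genes, which were used in place of all genes to scale the libraries.

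Against the pan-endocrine genes all 5 alpha-cell genes were still lower at 12 than at 4 weeks. On this scale 5 of 5 were called lower, where 0.828% of all genes were and the median change of all genes was 0.82 on the log2 scale. Of the 12 pan-endocrine genes that set the scale, 2 were themselves called lower and 1 higher. Ttr fell 1.82-fold (it fell by 0.87, SE 0.155, adjusted p = 0.000257 in edgeR), and Gc fell 1.73-fold (it fell by 0.79, SE 0.120, adjusted p = 0.000116 in edgeR). Irx2 fell 1.52-fold (by 0.61, adjusted p = 0.000852 in edgeR), Gcg fell 1.42-fold (by 0.51, adjusted p = 0.00144 in edgeR) and Irx1 fell 1.32-fold (by 0.40, adjusted p = 0.0300 in edgeR). Ttr, Gc and Irx2 passed the fold threshold here, as did 0.562% of genes. The call of Irx1 was lost without the first or the third mouse of 4 weeks or the third of 12 weeks, with an adjusted p of up to 0.132, and those of the other 4 genes were not lost without any 1 of these 6 mice. With the beta-cell list as the scale, 5 of 5 were also called lower, where 0.954% of genes were.

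Taken mouse by mouse, the difference between the log2 CPM of Gcg and the mean log2 CPM of the pan-endocrine genes was 5.75, 5.89 and 5.74 at 4 weeks and 5.05, 5.47 and 5.30 at 12 weeks. For Ttr it was 0.52, 0.59 and 0.75 at 4 weeks and -0.54, 0.16 and -0.44 at 12 weeks. For Irx1 it was -4.85, -5.01 and -4.95 at 4 weeks and -5.26, -5.15 and -5.62 at 12 weeks. Neither these 3 genes nor Gc and Irx2 overlapped between the ages, and the mean difference fell by 0.90 for Ttr, 0.80 for Gc, 0.60 for Irx2, 0.52 for Gcg and 0.41 for Irx1. Each had an exact two-sided permutation p of 0.1, the smallest that 3 mice against 3 can give.

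**Figure D3:**
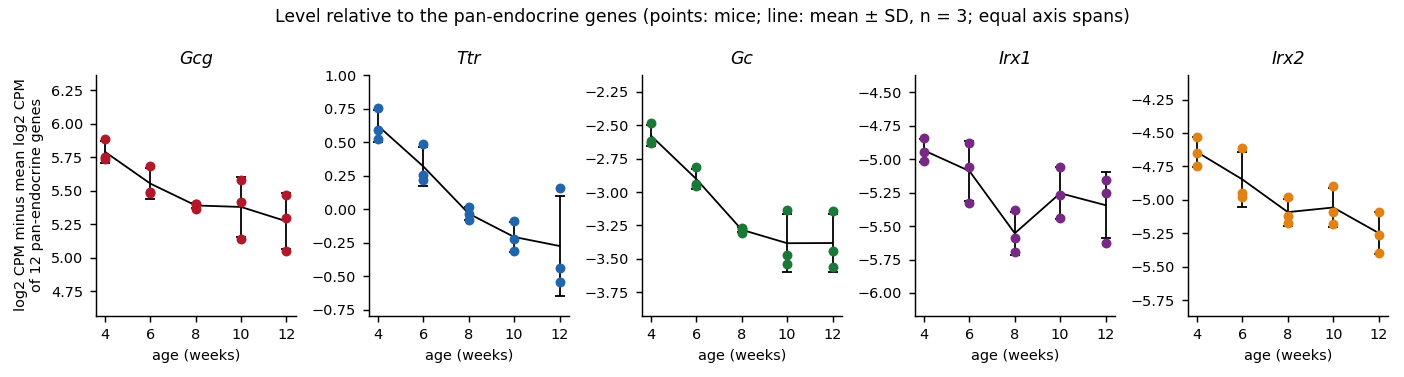
Level of each alpha-cell gene relative to the pan-endocrine genes (log2 CPM minus the mean log2 CPM of 12 genes; all panels span the same range) against age in weeks; points are mice, and lines join the means of 3 mice with their SD. The Gc mean goes from -2.58 at 4 weeks to -3.28 at 8 weeks and then stays near -3.38, and Irx1 is lowest at 8 weeks (-5.55).

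On this scale the calls lay in the first part of the time course. From 4 to 8 weeks Gc (it fell by 0.70, adjusted p = 0.0145 in edgeR), Ttr (by 0.66, adjusted p = 0.0416) and Irx1 (by 0.62, adjusted p = 0.0472) were called, 3 of 5 against 0.344% of all genes. Irx2 (it fell by 0.45, adjusted p = 0.0612 in edgeR) and Gcg (by 0.40, adjusted p = 0.0639) were not. From 8 to 12 weeks none of the 5 was called in this edgeR fit, where 0.248% of genes were lower, and none had a p under 0.05 before adjustment. The values ran from a fall by 0.21 for Ttr to a rise of 0.22 for Irx1. With TMM scaling the same spans gave 5 of 5 called at 8 against 4 weeks (2.34% of genes) and 4 of 5 at 12 against 8 weeks (17.8% of genes), all but Irx1 (adjusted p = 0.109 in edgeR). These 2 spans share the mice of 8 weeks, and the difference between them was not tested.

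Gcg was also set against the insulin genes directly. Its counts were 21.1, 20.8 and 20.3% of the summed Ins1 and Ins2 counts at 4 weeks, and 17.5, 15.1 and 14.9% at 6 weeks. They were 14.5, 16.7 and 16.0% at 8 weeks, 20.1, 15.5 and 14.7% at 10 weeks, and 12.3, 16.1 and 15.2% at 12 weeks. The 12 older mice all lay below those of 4 weeks, and the first mouse of 10 weeks, which had the highest leukocyte level of all mice (2487 CPM), came nearest to them. The mean went from 20.7% ± 0.420 to 14.6% ± 2.01 between 4 and 12 weeks (exact two-sided permutation p = 0.1, the smallest possible with n = 3 per age). Within the alpha-cell genes, the TPM of Gcg was 29.5 ± 3.26 times that of Ttr at 4 weeks and 38.4 ± 5.53 times at 12 weeks (exact two-sided permutation p = 0.1, n = 3 per age).

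Other genes of the alpha cell fell too. All 6 further alpha-cell genes given here fell between 4 and 12 weeks, with a median fall of 1.15 on the log2 scale. Slc38a5, a glutamine transporter, fell 2.97-fold, and Pou3f4, a POU-domain factor, fell 2.85-fold (from a mean of 6.03 to 2.11 CPM). Etv1 fell 2.31-fold. Against the pan-endocrine genes 3 of the 6 were called lower, namely Slc38a5 (it fell by 0.72, adjusted p = 0.00392 in edgeR), Pou3f4 (by 0.65, adjusted p = 0.0164) and Etv1 (by 0.34, adjusted p = 0.0247). Pcsk2 (the convertase that frees glucagon, also made by beta cells), Sstr2 and Slc7a2 were not called on that scale, with log2 changes of -0.12, -0.22 and 0.22. Of the 10 beta-cell genes none was lower and 1 was higher (Ucn3), where 80.8% of all genes were called higher on that scale, with log2 changes of -0.04 for Ins1 and 0.02 for Ins2.

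**Figure D4:**
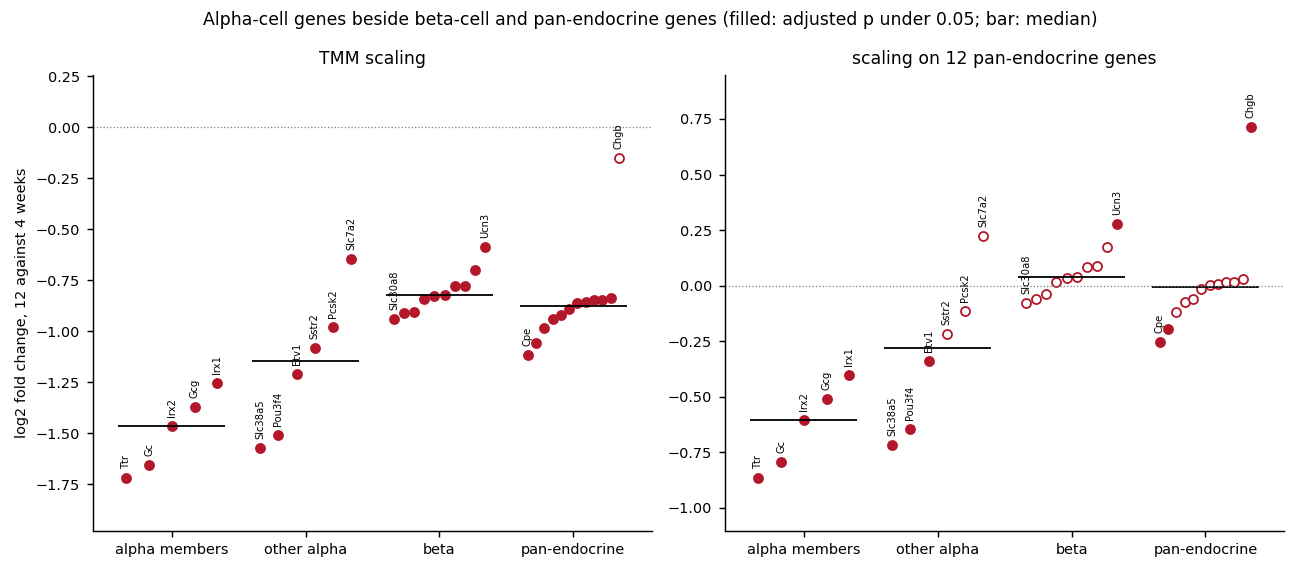
Log2 fold change at 12 against 4 weeks of the 5 alpha-cell genes, 6 other alpha-cell genes, 10 beta-cell genes and 12 pan-endocrine genes, with TMM scaling (left) and with scaling on the pan-endocrine genes (right); filled points have an adjusted p under 0.05 and bars are list medians. On the right the medians are -0.61 for the 5 genes, -0.28 for the other alpha-cell genes and 0.04 for the beta-cell genes. The pan-endocrine genes set this scale, so their median near 0 follows from it, although 2 of the 12 were called lower and 1 higher.

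The hormones of the other islet cells gave a reference on the same scale. Ppy, the pancreatic polypeptide gene, and Pyy, which islets also express, were lower against the pan-endocrine genes (they fell by 0.92 and 0.90 on the log2 scale, adjusted p = 0.00164 and 0.000319 in edgeR). Sst, the delta-cell hormone, was higher by 0.47 (adjusted p = 0.00290 in edgeR), less than the median of all genes on that scale (0.82). With TMM scaling its log2 change was -0.39 and it was not called (adjusted p = 0.0726 in edgeR).

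Of 6 factors known to act on the Gcg promoter, 5 could be tested with TMM scaling and 4 were lower at 12 weeks. Foxa2 fell by 0.89 on the log2 scale (from 81.9 to 44.3 CPM, adjusted p = 0.000703 in edgeR), Neurod1 by 0.89, Isl1 by 0.86 and Pax6 by 0.84, close to the median of the pan-endocrine list, of which the last 3 are part. Foxa1 was at 0.409 CPM at 4 weeks and 0.595 at 12 weeks and was not called (adjusted p = 0.313 in edgeR). On the pan-endocrine scale none of the 5 was lower and Foxa1 was higher (log2 change 1.41, adjusted p = 0.00942 in edgeR). Of all genes, 0.828% were called lower and 80.8% higher on that scale. Of the other Iroquois genes, Irx4, Irx5 and Irx6 had at most 2 counts in any library, below the floor, and Irx3 had 5 to 39 counts in a library. Irx3 was higher at 12 than at 4 weeks (log2 change 1.49, adjusted p = 0.0218 in edgeR, from 0.348 to 0.985 CPM), the reverse of Irx1 and Irx2.

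Among 7 genes that receive or break down proglucagon peptides or the related hormone GIP, 1 was lower and 2 were higher at 12 weeks. Gipr, the GIP receptor, fell by 1.08 on the log2 scale (from 132 to 62.5 CPM, adjusted p = 0.000678 in edgeR), and Gcgr, the glucagon receptor, was at 28.7 CPM at 4 weeks and 21.6 at 12 weeks (adjusted p = 0.0509 in edgeR). Mme, the membrane peptidase neprilysin, rose by 2.15 (from 3.86 to 17.2 CPM, adjusted p = 0.00643 in edgeR), and Glp2r rose from 0.0535 to 1.10 CPM. The level of Glp2r at 4 weeks was below the floor of 3 counts. On the pan-endocrine scale 6 of the 7 were called higher and none lower, where 80.8% of all genes were called higher. The median log2 change of the 7 was 0.71 there, against 0.82 for all genes. Gipr was not called on that scale (log2 change -0.21, adjusted p = 0.134 in edgeR). Among the partners of the carrier proteins, Vdr, the vitamin D receptor, fell by 0.69 (from 251 to 156 CPM, adjusted p = 0.00406 in edgeR) and Rbp4, the retinol-binding protein carried by transthyretin, by 0.48 (from 288 to 206 CPM, adjusted p = 0.0214 in edgeR). The other 4 genes of that list that could be tested were higher, each at a mean of 2.56 CPM or less at 12 weeks. On the pan-endocrine scale none of this list was lower. Vdr was not called there (log2 change 0.17, adjusted p = 0.203 in edgeR). Rbp4 had a log2 change of 0.38 (adjusted p = 0.00353 in edgeR), less than the median of all genes (0.82).

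Since Ttr and Gc are liver proteins and Gcg is also made in the gut, the markers of these tissues were read in each library. Alb, the albumin gene, had 33 to 159 counts in a library, and the summed level of 8 hepatocyte genes was 5.63 to 18.0 CPM in 14 libraries and 83.6 in the first mouse of 12 weeks. That mouse also held 1335 counts of Fabp2, 823 of Fabp1 and 2004 of Apoa1, and the second mouse of 6 weeks held 257, 121 and 254. The other 13 libraries had at most 2 counts of Fabp2. Insl5, a hormone of gut endocrine cells, had at most 3 counts in any library. It belongs to a list of 4 gut endocrine genes, with Pyy, Nts and Cck. The mean log2 CPM of that list was highest in the first mouse of 12 weeks (1.28), although Pyy, which islets also express, was lowest there (474 CPM). Whether gut cells added to the Gcg of that library was not tested. The first mouse of 12 weeks had 16581 CPM of Gcg and 344 of Ttr. Without it, 5 of 5 genes were called lower at 12 than at 4 weeks, with TMM scaling and on the pan-endocrine scale.

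The levels of the 5 genes were also compared with each other from mouse to mouse. Over the 15 mice, the Pearson r of log2 CPM between pairs of the 5 ran from 0.933 (Gcg with Irx1) to 0.992 (Ttr with Gc), a description that includes the change with age that all 5 share. Over all genes, with the partner itself counted, 178 had an r with Gcg at least that of Irx1, the lowest pair. In the other pairs this count, taken from the first gene named, ran from 1 (Ttr with Gc, Gcg with Irx2) to 15 (Irx2 with Gc). After the mean of each age was subtracted, Ttr and Gc kept an r of 0.946 and a Spearman's rho of 0.957 (exact permutation within ages, 7776 arrangements, two-sided, n = 15, p = 0.000514 and 0.00103, or 0.00514 and 0.0103 adjusted over the 10 pairs). The r was 0.937 without the 2 mice farthest from the median. Gcg with Ttr had an r of 0.838 and a rho of 0.786 (adjusted permutation p = 0.0148 and 0.0154), and 0.713 without those 2 mice. Irx1 stood furthest from the hormone and carriers, with r of 0.595 to Gcg (adjusted permutation p = 0.198), 0.629 to Ttr (0.114) and 0.545 to Gc (0.0876), and its closest partner was Irx2 (r 0.847, rho 0.764, adjusted permutation p = 0.0183 and 0.0229, and r 0.715 without those 2 mice).

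Outside the 5, the genes whose log2 CPM over the 15 mice was most like each one were ranked by Pearson r. For Gcg these were Gpx3, a secreted glutathione peroxidase (r = 0.981), Sdk1 (0.977) and G2e3 (0.976). For Ttr they were Ric8b (0.978), Pam, the enzyme that amidates peptide hormones (0.978), and Igsf1 (0.975). For Gc they were Pam (0.982), Slc25a53 (0.980) and Maged2 (0.976). For Irx1 they were Bag6 (0.963), the alpha-cell transporter Slc38a5 (0.954) and Gpat4 (0.949), and for Irx2 Marveld3 (0.983), Pcdh1 (0.974) and Lmtk3 (0.972). Pam stood in the first 3 of both carrier genes. These r values come from the same libraries and the same trend with age. After the mean of each age was subtracted, the r of these pairs ran from 0.685 (Sdk1 with Gcg) to 0.939 (Gpx3 with Gcg). It was 0.907 for Ric8b with Ttr. Within-age values above that of Gcg with Ttr (0.838) were thus also found outside the 5 genes.

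The level of the 5 genes was also set against that of the leukocyte genes within each age. At 4 weeks their mean log2 CPM was 8.56, 8.64 and 8.72 where that of the 22 leukocyte genes was 2.02, 0.45 and -0.52. At 8 weeks it was 7.95, 7.73 and 7.72 where the leukocyte mean was 1.94, 4.03 and 4.63. By these means of log2 CPM, the mouse with the highest leukocyte level had the lowest level of the 5 genes at each of the 5 ages, and the mouse with the lowest had the highest, although at 12 weeks the leukocyte means of the first and second mouse (both 5.68) were nearly tied. By summed CPM the order did not hold at every age. At 12 weeks the first mouse had both the lowest leukocyte sum (2049 CPM) and the lowest sum of the 5 genes (16994 CPM), and at 4 weeks the mouse with the lowest leukocyte sum had 50558 CPM of the 5 genes, below the 53259 of another. By mean log2 CPM, the pan-endocrine and beta-cell lists also ran in reverse order to the leukocyte genes at 4, 8, 10 and 12 weeks. At 8 weeks, for example, the beta-cell mean was 11.24, 10.99 and 10.92. At 6 weeks the third mouse, highest in leukocyte genes, was again lowest in both lists, but the second mouse was highest. The reversed order was therefore not particular to the 5 genes. With the leukocyte mean as a covariate in the edgeR fit, the fall from 4 to 12 weeks was 0.93 for Gcg (adjusted p = 0.128), 1.09 for Gc (adjusted p = 0.224), 0.85 for Irx2 (adjusted p = 0.214), 0.94 for Ttr (adjusted p = 0.449) and 0.78 for Irx1 (adjusted p = 0.457) on the log2 scale, so 0 of 5 were called, against 0.0121% of genes lower. Before adjustment the p of all 5 was under 0.05 there. The leukocyte level and age rise together in these mice, and their parts in the fall cannot be told apart by that fit.

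**Figure D5:**
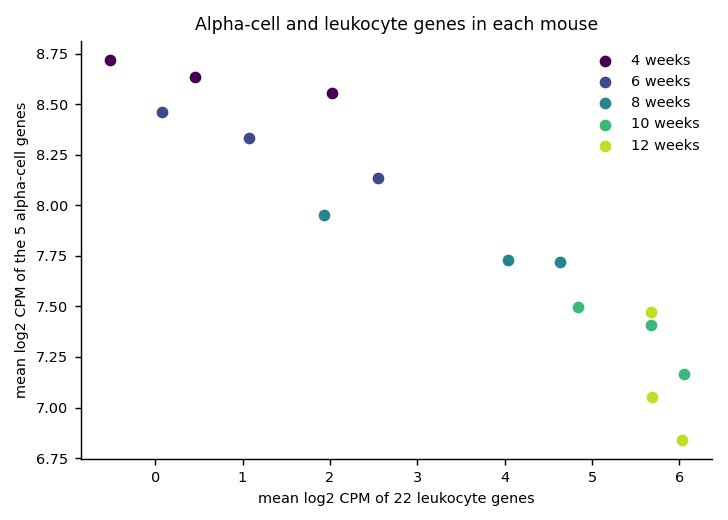
Mean log2 CPM of the 5 alpha-cell genes (vertical axis) against that of 22 leukocyte genes (horizontal axis) in each of the 15 mice, coloured by age. The mice of 4 weeks lie at 8.56 to 8.72 on the vertical axis and those of 12 weeks at 6.84 to 7.47, and within each age the order of the mice on one axis is the reverse of that on the other, with a near tie of 2 mice of 12 weeks at 5.68 on the horizontal axis.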

How the data were processed

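RNA-seq of islets from 15 NOD females was used, with groups taken from the age in the sample labels. The counts are whole numbers of reads per gene that the authors made in CLC Genomics Workbench (default settings) and deposited without normalization; the submitters' processing notes give mm10. TPM values were deposited by the authors in the same table and were used only to compare levels between genes. A further 30 per-sample columns were not used here. Counts per library ran from 25407492 to 41616275, and a floor of 3 counts was 0.0754 to 0.128 CPM. P-values measure the spread between mice. The alpha-cell genes and all marker lists were chosen with earlier results of these data known.

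Tests used edgeR 4.0.16 in R 4.3.3 (filterByExpr kept 16554 of 48709 genes, TMM, glmQLFit with a mean per age over all 15 mice, glmQLFTest, Benjamini-Hochberg over all genes tested). Called means an adjusted p under 0.05. Log2 CPM used a prior count of 2. The comparisons were each age against the one before and 12 against 4 weeks. The comparisons of 8 against 4 and 12 against 8 weeks, and the leaving out of single mice on the pan-endocrine scale, were added after seeing the data. The scaling on the pan-endocrine list takes the library factors from its 12 genes. Differences between single values were tested by exact permutation. The alternatives were DESeq2's size factors, library totals, scaling on the pan-endocrine or beta-cell list, no filter, the 2 ages alone, the edgeR exact test, DESeq2 1.42.0, a leukocyte covariate, the replicate number as a block and each mouse left out. The fit was tested on simulated data of the 12 against 4 weeks comparison with 16554 genes: it recovered 50% of 100 genes changed 2-fold and 24% of 100 changed 1.5-fold, with 1 false call. No other genes were changed there, while 8858 were called in the data. The changed genes were drawn from all those tested, so these shares were not measured for genes at the levels of the 5. All 5 genes and the lists are named by rule, together with the 3 genes most like each of the 5. Itgam, a leukocyte marker, was not used here, which left 22 leukocyte genes, and some genes of the list of other alpha-cell genes are not reported here, so its counts and medians cover the 6 that are. Promoters came from RefSeq (GRCm38.p6) and were printed for 3 of the 5 genes, and exons from GENCODE M21. Figures were drawn with matplotlib 3.10.9 in Python 3.11.15.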

Additional observations from a re-analysis of the deposited data

How the results depend on the processing

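The fall of the 5 genes from 4 to 12 weeks kept its direction in all alternatives and was called in 5 of 5 in all but the leukocyte covariate (0 of 5). It was called in 5 of 5 without each mouse in turn. The number past the fold threshold went from 5 to 3 with scaling on the pan-endocrine list and to 3 on the beta-cell list. The joint test called 5 in each of its alternatives. The change relative to the pan-endocrine genes kept its sign for all 5 with the beta-cell list, a prior count of 0.5, library totals and each mouse left out. On the pan-endocrine scale 4 to 5 genes were called without each mouse in turn, and the count went from 5 to 3 at 8 against 4 weeks and from 4 to 0 at 12 against 8 weeks.

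The single steps depended more on the processing. At 8 against 6 weeks the calls went from 0 to 1 (edgeR exact test) and 2 (DESeq2), and the number past the fold threshold from 1 to 0 with library totals, either list as the scale or the leukocyte covariate, and to 0 to 3 without single mice. At 10 against 8 weeks the 2 calls became 1 with DESeq2's size factors, 4 with DESeq2, and 0 with library totals, either list as the scale, no filter, the replicate block, the leukocyte covariate or the 2 ages alone, and 0 to 4 without single mice. The number past the fold threshold there went from 1 to 0 with library totals, either list or the covariate, and to 0 to 2 without single mice. Signs turned at this step for Gcg (0.00039 and 0.082 on the pan-endocrine and beta-cell scales), Irx2 (0.035 and 0.11) and Irx1 (0.30 and 0.38, and 0.026 with the covariate), and at 12 against 10 weeks for Gc (0.00047 on the pan-endocrine scale). Why these settings changed the calls was not tested.

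Replicate numbers did not pair the mice: the correlations of same-numbered deviations were 0.026, 0.102 and -0.159 for 12 against 4 weeks and ran from -0.504 (6 against 4 weeks) to 0.509 (8 against 6 weeks) over the 5 comparisons, none of which had all 3 above 0.1, and different ages are different animals. The replicate block called 5 of 5 genes there (8328 genes in all against 8858) and 0 at 10 against 8 weeks (0 genes against 2776). Over all genes, 6 against 4 weeks gave 15 calls in the fit reported and 249 in DESeq2. In data simulated for 12 against 4 weeks, with far fewer changed genes than were called in the data, 24% of the 1.5-fold changes were recovered. The single steps were not simulated. A gene not called at a step was not shown to be steady. The pan-endocrine genes were chosen knowing earlier results and themselves fell. The intervals rest on counts of polyadenylated RNA in whole islets, and protein was not analysed here.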
